A study of Arabidopsis thaliana with 21 samples.

Results

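The comparison described here sets 4 libraries of the NAC73 line against 4 libraries of the CALS7 line, 8 of the 21 RNA sequencing libraries of the series, chosen by their sample titles. All libraries come from Arabidopsis thaliana roots, whose fluorescent protoplasts were collected by cell sorting, and the series describes the collected cells as protophloem sieve elements. The NAC73 line carries pNAC73::H2B-YFP and the CALS7 line pCASL7::H2B-YFP, spelled so in the labels and read here as the CALS7 promoter. Both lines also carry pS32::erRFP, so they share the red reporter and differ in the promoter that drives the yellow one. In both, seedlings were 5 days old, the roots were digested with cellulase and pectolyase, and the cDNA was amplified by PCR. Each line is known only by its reporters, the gate colour is not stated, and nothing says whether replicates came from separate plantings. The p-values therefore measure the spread between libraries, which may be technical. In fits of all lines this spread is estimated over all 21 libraries, so it also draws on the 13 libraries of the other lines. In bulk RNA fewer cells of a type and less RNA per cell cannot be told apart.

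A protophloem sieve element is made by a short lineage in the root tip that ends in a living cell without a nucleus. The transcription factor APL acts upstream of the related NAC factors NAC045 and NAC086. In Arabidopsis these switch on NEN1 to NEN4, proteins with an exonuclease domain that take part in the breakdown of the nucleus. CALS7 makes the callose that is laid down at sieve plate pores, and S32 (GATA20) and NAC073 are transcription factors of the same cells.

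The upstream windows of NAC073, whose promoter drives one reporter, and of NEN1 and NEN2 are shown because these genes were higher together in the NAC73 line. They are the 250 bases before each gene's annotated start in RefSeq TAIR10.1, at chr4:14082410-14082659 (plus strand), chr5:2452775-2453024 (plus strand) and chr5:24681079-24681328 (minus strand), and no letters are in capitals because neither motif was found.
NAC073: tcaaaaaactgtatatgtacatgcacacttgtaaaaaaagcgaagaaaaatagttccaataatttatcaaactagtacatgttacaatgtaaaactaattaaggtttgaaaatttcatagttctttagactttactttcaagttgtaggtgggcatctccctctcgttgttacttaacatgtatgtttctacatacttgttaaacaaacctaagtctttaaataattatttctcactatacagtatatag
NEN1: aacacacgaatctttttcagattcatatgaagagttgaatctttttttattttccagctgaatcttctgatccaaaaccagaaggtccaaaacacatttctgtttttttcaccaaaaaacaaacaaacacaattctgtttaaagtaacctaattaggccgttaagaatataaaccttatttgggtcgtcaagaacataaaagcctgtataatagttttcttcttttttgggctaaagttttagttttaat
NEN2: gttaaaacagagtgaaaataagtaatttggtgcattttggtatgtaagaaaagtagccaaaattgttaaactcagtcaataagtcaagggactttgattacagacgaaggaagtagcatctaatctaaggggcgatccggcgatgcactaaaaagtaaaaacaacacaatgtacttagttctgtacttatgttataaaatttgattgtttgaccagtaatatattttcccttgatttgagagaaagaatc
The motifs searched on both strands were the element named TERE and the NAC core element (CATGTG). The NAC core letters were present in 11.1% of the windows of 27443 nuclear protein-coding genes, in 9.99% of those of genes higher in NAC73 and in 11.1% of those of genes lower in NAC73. TERE was present in 0.368% of all windows. None of the 4 NEN windows held either motif, which says only that these letters are not in these windows. The windows of NEN3 and NEN4 overlap neighbouring genes.

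Library totals ran from 23513921 to 32260798 counts in NAC73 and from 26724330 to 30888884 in CALS7. Fewer genes had a count in NAC73, 16916 to 19644 per library against 23756 to 27560, and the groups did not overlap (exact permutation test, two-sided, p = 0.0286, the smallest that 4 against 4 allows). The organelle share of counts was 0.847% ± 0.153 (SD, n = 4) in NAC73 and 2.35% ± 0.19 in CALS7 (exact permutation p = 0.0286). All 9 sieve element transcription factors kept by name were above 100 CPM in mean in both lines. The NAC73 libraries were not alike. NAC73 1 and 4 differed from NAC73 2 and 3 across many lists, among them DNA replication, ribosome biogenesis, G2 and M phase, and wounding and stress. List counts are given for both pairs where they differ. The pairs were found in these same data, so such counts describe the split and do not test it. CALS7 2 stood apart in root hair genes, with 6.7, 329, 6.62 and 39.7 CPM summed over 10 markers in CALS7 1 to 4.

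Levels are CPM, counts relative to the library total after TMM, a scaling that sets the bulk of genes level between libraries. Differences are log2, NAC73 minus CALS7, from edgeR's quasi-likelihood test with all 21 libraries in one model and Benjamini-Hochberg adjustment over all genes tested, and a gene passed the test at an adjusted p below 0.05. Of 25924 nuclear genes tested, 4075 (15.7%) were higher in NAC73 and 5191 (20.0%) were lower, 35.7% in all. With only the 2 lines in the fit, 955 of 18235 (5.24%) were higher and 1281 (7.02%) lower, 12.3% in all. The count therefore depends on which lines are fitted. With all lines fitted, NAC73 1 and 4 only gave 19.1% higher and 11.6% lower, and NAC73 2 and 3 only gave 16.8% and 30.2%. Counts of list members below are to be read beside these shares. The median difference of all nuclear genes was -0.11, and it was -0.84 when only library totals were used, where 837 genes were higher and 10167 lower. Directions below are therefore relative to the bulk of genes.

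**Figure D1:**
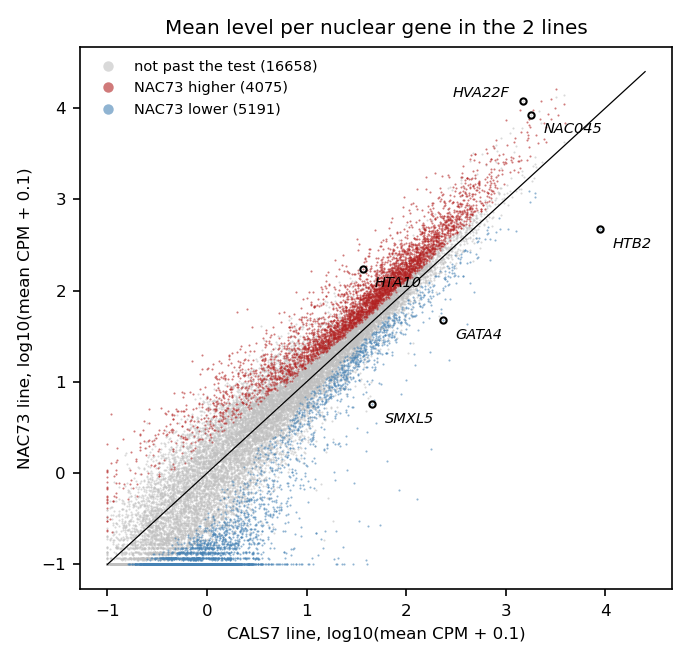
Mean level of each nuclear gene in the CALS7 line (x) and the NAC73 line (y), as log10 of mean CPM plus 0.1, with genes past the test in colour. HTB2 lies far below the diagonal and HVA22F and NAC045 above it.

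The genes whose promoters drive the reporters were measured first. NAC073 (AT4G28500, chromosome 4) stood at 336, 645, 634 and 399 CPM in NAC73 1 to 4 and 141, 201, 130.3 and 118 CPM in CALS7 1 to 4. All 4 NAC73 libraries were above all CALS7 libraries, with a log2 difference of 1.77 ± 0.63 (SE) and an adjusted p of 0.0375, and 1.42 (adjusted p = 0.0159) with the 2 lines alone. With all lines fitted and 1 library left out at a time, here and below, it did not pass without NAC73 2 or 3 or CALS7 1, 3 or 4 (adjusted p from 0.0654 to 0.0848), nor with TMM with singleton pairing (adjusted p = 0.0662) or library totals only (adjusted p = 0.229). In the 13 libraries of the other lines NAC073 was 0.0486 to 15.5 CPM. CALS7 (AT1G06490), the callose synthase, stood at 1733, 6102, 2936 and 6044 CPM in NAC73 1 to 4 and 3963, 4647, 3359.6 and 3574 CPM in CALS7 1 to 4. The lines overlapped, with a log2 difference of 0.11 ± 0.43 (SE) and an adjusted p of 0.861, and the sign turned to -0.72 with library totals only and to -0.27 with the 2 lines alone. S32 was 1081, 2115, 1682 and 1031 CPM in NAC73 1 to 4 and 1027, 889.9, 928 and 985 CPM in CALS7 1 to 4, with a log2 difference of 0.63 ± 0.19 (SE) and an adjusted p of 0.0191, a call that was lost with the 2 lines alone (0.25, adjusted p = 0.621) and without NAC73 2 (adjusted p = 0.0786), and whose sign turned with library totals only (-0.23). NAC057, another NAC factor, did not pass the test, at a log2 difference of 0.64 (adjusted p = 0.109), and its sign turned with library totals only (-0.21). PEAR1 (DOF2.4), a DOF factor of early phloem, was lower in NAC73 at 159, 225, 212 and 155 CPM against 326, 276, 302 and 293 CPM, with a log2 difference of -0.67 ± 0.15 (SE) and an adjusted p of 0.00236. CVP2, a phosphoinositide phosphatase of the sieve element lineage, was also lower, with a log2 difference of -0.60 ± 0.20 (SE) and an adjusted p of 0.0276, and did not pass without NAC73 1 or CALS7 1 (adjusted p from 0.0576 to 0.073).

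Of 10 transcription factors of sieve elements listed, 9 were kept by name and tested, and S32, given above, was dropped. Of the 9, 4 were higher in NAC73 and 1 was lower, beside 15.7% and 20.0% of all nuclear genes. Their median was 1.01, beside -0.11 for all nuclear genes. NAC073, whose promoter drives the reporter of the NAC73 line, was among the 4 higher genes. With the 2 lines alone 3 were higher and 1 lower, and with library totals only 0 were higher and 3 lower. The count of higher genes fell to 2 without NAC73 2 or 3 or CALS7 1, 3 or 4, and there were 1 higher and 1 lower with NAC73 1 and 4 only, and 5 and 1 with NAC73 2 and 3 only. APL, the MYB-related factor that phloem identity requires, stood at 1741, 3406, 3444 and 1996 CPM in NAC73 1 to 4 and 1297, 1601, 1194 and 1163 CPM in CALS7 1 to 4, with a log2 difference of 1.01 ± 0.21 (SE) and an adjusted p of 0.00169. Its 2-line value was log2 0.65 (adjusted p = 0.167). NAC086 stood at 3209.9, 6728, 5623 and 4639.8 CPM in NAC73 1 to 4 and 2133, 2373, 1727 and 1751 CPM in CALS7 1 to 4, and every NAC73 library was above every CALS7 library, with a log2 difference of 1.34 ± 0.35 (SE) and an adjusted p of 0.00745. NAC045, its partner, stood at 5444, 11868, 9624 and 7045 CPM in NAC73 1 to 4 and 1902, 2270.4, 1507 and 1453 CPM in CALS7 1 to 4, without overlap. Its log2 difference was 2.25 with an SE of 1.07, which did not pass the test with all lines fitted (adjusted p = 0.105) and passed with the 2 lines alone (log2 1.89, adjusted p = 0.011). NAC010 was higher at a log2 difference of 1.09 (adjusted p = 0.0351), and log2 0.71 (adjusted p = 0.0594) with the 2 lines alone, and did not pass without NAC73 2 or 3 or CALS7 1, 2, 3 or 4 (adjusted p from 0.0525 to 0.0785). NAC020, a NAC factor of phloem development, was lower, at 119, 216, 191 and 143 CPM against 304, 267, 280.2 and 309.6 CPM, with a log2 difference of -0.79 ± 0.16 (SE) and an adjusted p of 0.00142. NAC028 had a log2 difference of -0.093 (adjusted p = 0.618), with overlapping libraries.

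Of the 4 NEN genes, 3 were higher and 1 lower, and with the 2 lines alone 3 were higher and 0 lower. Counts were 2 higher and 1 lower with NAC73 1 and 4 only, and 3 and 1 with NAC73 2 and 3 only. NEN1 stood at 2225, 4979, 4429 and 3136 CPM in NAC73 1 to 4 and 819, 1025, 599 and 608 CPM in CALS7 1 to 4, 4.84-fold higher on the means, with a log2 difference of 2.27 ± 0.38 (SE) and an adjusted p of 0.000353. NEN2 stood at 2317, 5325, 4642 and 3595 CPM in NAC73 1 to 4 and 1037, 1346, 879 and 831 CPM in CALS7 1 to 4, with a log2 difference of 1.96 ± 0.29 (SE) and an adjusted p of 0.000131. These are the genes whose upstream windows are printed above, and in both the NAC73 and CALS7 libraries did not overlap. NEN4 stood at 1433, 4351, 4710.5 and 1928 CPM in NAC73 1 to 4 and 461, 663, 461 and 367 CPM in CALS7 1 to 4, with a log2 difference of 2.67 ± 0.99 (SE) and an adjusted p of 0.0447. Its call was lost without NAC73 2 or 3 or CALS7 1, 2, 3 or 4 (adjusted p from 0.0599 to 0.0967), and under the 3 other scalings in edgeR (adjusted p from 0.051 to 0.135). NEN3 was at most 2.65 CPM in NAC73 and 4.41, 5.19, 7.99 and 7.3 CPM in CALS7, with a log2 difference of -2.16 ± 0.46 (SE) and an adjusted p of 0.00198 and log2 -2.54 (adjusted p = 0.0506) with the 2 lines alone. Within the NAC73 line the 3 higher NEN genes were lower in libraries 1 and 4 than in 2 and 3, a pattern shared by 44.8% of the 7388 nuclear genes with a mean of 20 CPM or more in NAC73.

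**Figure D2:**
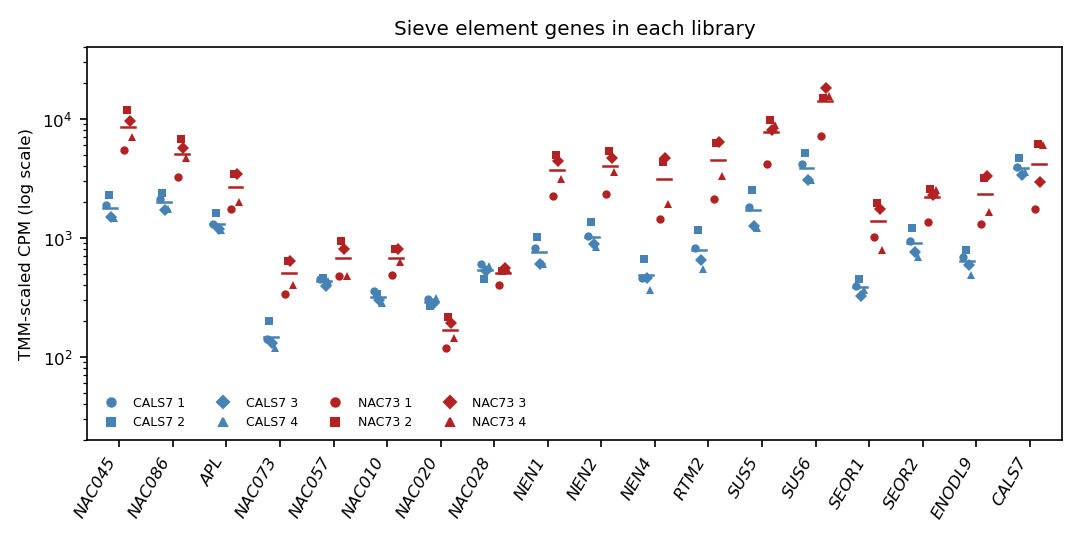
Sieve element genes in each of the 8 libraries (TMM-scaled CPM, log scale), with the group mean as a bar. NAC045, NAC086, NEN1, NEN2 and NEN4 are higher in all 4 NAC73 libraries, and CALS7 overlaps between the lines.

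Of 8 structural genes of sieve elements, 1 was higher and 1 lower with all lines fitted, and 6 were higher and 0 lower with the 2 lines alone. The common dispersion, estimated in each line on its own, was 0.267 within NAC73 and 0.139 within CALS7. RTM2, a small heat shock-like protein of the phloem, stood at 2120.0, 6308, 6336 and 3309.6 CPM in NAC73 1 to 4 and 822, 1162, 654 and 548 CPM in CALS7 1 to 4, with a log2 difference of 2.50 ± 0.94 (SE) and an adjusted p of 0.0468. This call, the only higher one with all lines fitted, was lost without NAC73 2, 3 or 4 or CALS7 1, 2, 3 or 4 (adjusted p from 0.0516 to 0.103) and under the 3 other scalings in edgeR (adjusted p from 0.0537 to 0.146), and there were 0 higher and 0 lower with NAC73 1 and 4 only, and 1 and 1 with NAC73 2 and 3 only. SUS5 and SUS6 are sucrose synthases of the phloem. SUS6 stood at 7222, 15002, 18095 and 15533 CPM in NAC73 1 to 4 and 4199.9, 5129.8, 3028 and 3048 CPM in CALS7 1 to 4, without overlap, and its log2 difference was 1.86 (adjusted p = 0.0745; 2 lines alone log2 1.50, adjusted p = 0.0193). SUS5 had a log2 difference of 2.18 (adjusted p = 0.0915) and log2 1.82 (adjusted p = 0.0146) with the 2 lines alone. SEOR1 and SEOR2 encode the subunits of sieve element protein filaments. SEOR1 had a log2 difference of 1.84 (adjusted p = 0.0916) and log2 1.49 (adjusted p = 0.0188) with the 2 lines alone, and SEOR2 a log2 difference of 1.29 (adjusted p = 0.233) and log2 0.92 (adjusted p = 0.0441). ENODL9, an early nodulin-like protein of sieve elements, had a log2 difference of 1.88 (adjusted p = 0.0989) and log2 1.53 (adjusted p = 0.0212). CHER1, a choline transporter-like protein needed for sieve plate pores, was lower, at 42.3, 13.2, 8.51 and 34.1 CPM against 45.6, 47.4, 50.3 and 41.9 CPM (log2 difference -0.92, adjusted p = 0.0383), and log2 -1.32 (adjusted p = 0.09) with the 2 lines alone. It did not pass without NAC73 2 or 3 or CALS7 1, 2, 3 or 4 (adjusted p from 0.0519 to 0.099).

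Of 12 callose synthases listed, 5 were kept by name and tested. Of these, 0 were higher and 2 lower, and 0 and 1 with the 2 lines alone. They gave 0 higher and 1 lower with NAC73 1 and 4 only, and 0 and 2 with NAC73 2 and 3 only. CALS3, a callose synthase of plasmodesmata, stood at 22.7, 26.2, 16.3 and 68.8 CPM in NAC73 and 94.6, 84.4, 98.5 and 109 CPM in CALS7, with a log2 difference of -1.53 ± 0.33 (SE) and an adjusted p of 0.00241. CALS1 was lower (log2 difference -2.93, adjusted p = 0.0161) from low levels, at most 13.5 CPM. CALS9 (log2 difference 0.034, adjusted p = 0.939) and CALS5 (log2 difference -0.42, adjusted p = 0.514) did not pass the test, and CALS9 was -0.80 with library totals only.

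Of 20 early protophloem genes listed, 16 were kept by name and tested, and PEAR1, given above, was among those dropped. Of the 16, 2 were higher and 10 lower in NAC73, with a median of -0.75, and 0 and 9 with the 2 lines alone. They gave 0 higher and 10 lower with NAC73 1 and 4 only, and 3 and 10 with NAC73 2 and 3 only. These genes act in the first steps of the lineage, as DOF factors, receptors and regulators of protophloem entry. SMXL5, a repressor-like protein that promotes phloem formation, stood at 2.36, 2.99, 2.53 and 14.5 CPM in NAC73 1 to 4 and 46.7, 53.6, 43.5 and 37.6 CPM in CALS7 1 to 4. It fell by 3.02 on the log2 scale (adjusted p = 0.000142), and NAC73 4 was the highest of its line. SMXL4, its relative, stood at 41.1, 43.5, 19.7 and 76.2 CPM in NAC73 1 to 4 and 149.6, 193, 133 and 119 CPM in CALS7 1 to 4, with a log2 difference of -1.72 ± 0.32 (SE) and an adjusted p of 0.000697. OPS, a membrane protein of protophloem, stood at 1.64, 2.91, 2.77 and 13.8 CPM against 23.2, 26.6, 27.5 and 26.5 CPM, with a log2 difference of -2.30 ± 0.47 (SE) and an adjusted p of 0.00151. DOF6 (log2 difference -1.19, adjusted p = 7.92e-05), TMO6 (log2 difference -0.71, adjusted p = 0.00229) and HCA2 (log2 difference -2.61, adjusted p = 0.0168), all DOF factors, were lower. The receptor kinase BAM3 stood at 254, 559, 529.8 and 396 CPM in NAC73 1 to 4 and 809, 763, 829 and 788 CPM in CALS7 1 to 4, with a log2 difference of -0.88 ± 0.19 (SE) and an adjusted p of 0.00229. BRX, a plasma membrane protein of protophloem, was higher (log2 difference 0.71, adjusted p = 0.0115; 2 lines alone log2 0.34, adjusted p = 0.347), and so was the peptide gene CLE26 (log2 difference 0.87, adjusted p = 0.00248; 2 lines alone log2 0.51, adjusted p = 0.272). With library totals only BRX turned to -0.12.

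**Figure D3:**
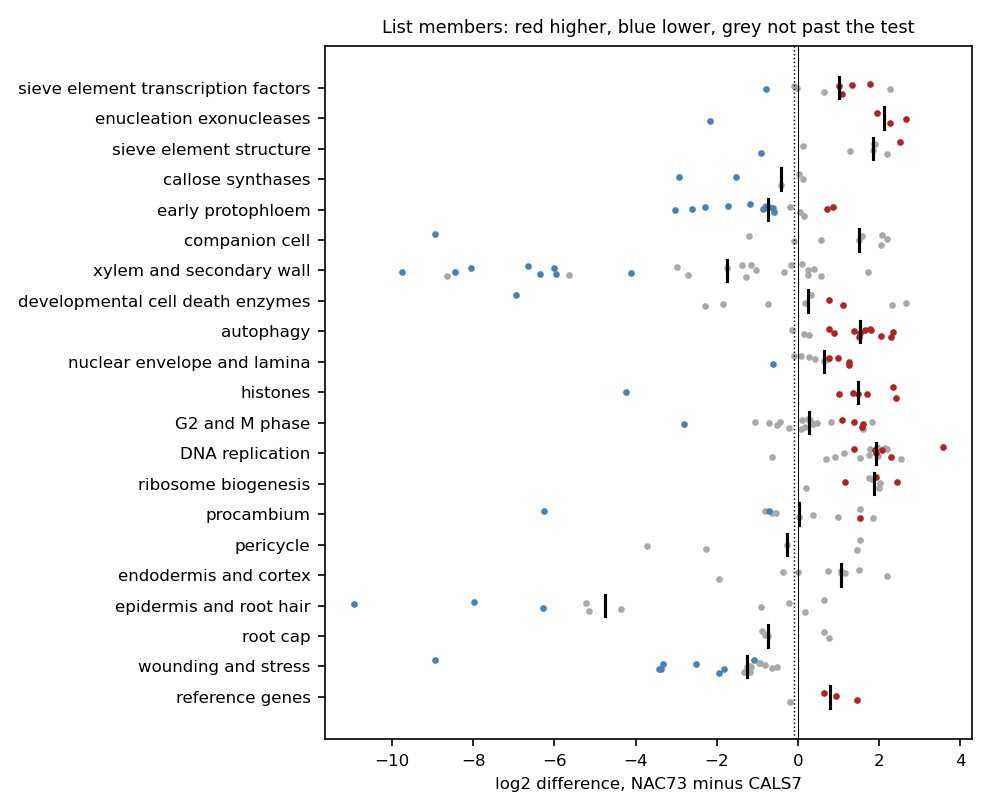
Log2 difference, NAC73 minus CALS7, of each tested member of 21 lists, with the list median as a black bar and the median of all nuclear genes as a dotted line. Early protophloem and stress genes lie mostly below 0, autophagy genes mostly above.

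Of 14 autophagy genes, 11 were higher and 0 lower in NAC73, and 7 and 0 with the 2 lines alone. Library totals only gave 7 and 2. There were 9 higher and 0 lower with NAC73 1 and 4 only, and 11 and 1 with NAC73 2 and 3 only. The list median was 1.51. ATG8 proteins coat the membrane of the forming autophagosome. ATG8H stood at 568, 1648, 1786 and 617 CPM in NAC73 1 to 4 and 239, 284, 206 and 214 CPM in CALS7 1 to 4, with a log2 difference of 2.29 ± 0.32 (SE) and an adjusted p of 9.78e-05. ATG8D (log2 difference 2.34, adjusted p = 0.000127), ATG8I (log2 difference 2.03, adjusted p = 0.000194) and ATG8C (log2 difference 1.50, adjusted p = 0.000131) were also higher. ATG8A stood at 657, 1745, 2114 and 863 CPM in NAC73 1 to 4 and 407, 451, 341 and 339 CPM in CALS7 1 to 4, and ATG8F at 58.1, 136, 143 and 59.3 CPM in NAC73 1 to 4 and 24.5, 34, 28.7 and 29 CPM in CALS7 1 to 4. Both passed the test, at log2 differences of 1.81 and 1.77. ATG9, a membrane protein of autophagosome formation, was higher (log2 difference 1.38, adjusted p = 0.000319), and ATG7, an activating enzyme, was not (log2 difference -0.16, adjusted p = 0.449). NAC73 2 and 3 were above NAC73 1 and 4 in 11 of 13 members with a mean of 20 CPM or more, beside 44.8% of all nuclear genes with that mean.

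Of 10 developmental cell death enzymes tested, 2 were higher and 1 lower, and 0 and 0 with the 2 lines alone. There were 1 higher and 2 lower with NAC73 1 and 4 only, and 2 and 4 with NAC73 2 and 3 only, and 1 to 3 lower with 1 library left out, most without NAC73 4. The ribonuclease RNS2 stood at 321, 530.0, 594 and 317 CPM in NAC73 1 to 4 and 208, 217, 194 and 194 CPM in CALS7 1 to 4, with a log2 difference of 1.11 ± 0.19 (SE) and an adjusted p of 0.000353. The protease GAMMA-VPE had a log2 difference of 0.75 (adjusted p = 0.0136), and its sign turned with library totals only (-0.092). RNS1, another ribonuclease, was at 0 counts in NAC73 and 0.984, 0.251, 0.291 and 0.412 CPM in CALS7, at least 10.6-fold lower against 3 counts over the line. SCPL48 had a log2 difference of -1.86 (adjusted p = 0.0797).

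Of 11 nuclear envelope and lamina genes, 4 were higher and 1 lower, and 0 and 1 with the 2 lines alone. Pair counts were 7 higher and 0 lower with NAC73 1 and 4 only, and 4 and 2 with NAC73 2 and 3 only. WIP2, a protein of the outer nuclear envelope, stood at 36.1, 25.4, 27.2 and 22.8 CPM against 13.4, 14, 7.84 and 11.5 CPM (log2 difference 1.26, adjusted p = 0.000661). SUN1 of the inner envelope had a log2 difference of 0.98 (adjusted p = 0.000753) and WIP1 a log2 difference of 1.27 (adjusted p = 0.00885). CRWN3, a lamina-like protein, stood at 27.9, 45.9, 36.9 and 56.9 CPM against 57.2, 73.2, 69.4 and 57.6 CPM and was lower (log2 difference -0.62, adjusted p = 0.0215), a call lost without NAC73 1 or 3 or CALS7 3 (adjusted p from 0.0509 to 0.0585).

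Of 13 histone genes listed, 7 were kept by name and tested, and all H1 and H3.3 genes of the list were dropped. Of the 7, 6 were higher and 1 lower, and 3 and 1 with the 2 lines alone. There were 6 higher and 1 lower with NAC73 1 and 4 only, and 4 and 2 with NAC73 2 and 3 only. HTB2 (AT5G22880), an H2B gene, stood at 384, 478, 559.8 and 463 CPM in NAC73 1 to 4 and 7683, 13536, 7032 and 7378 CPM in CALS7 1 to 4. It was 18.9-fold lower in NAC73, with a log2 difference of -4.24 ± 0.28 (SE) and an adjusted p of 6.19e-08, and the lines did not overlap. In the 13 libraries of the other lines it was 99.5 to 362 CPM. Both reporters are H2B fusions and the labels do not name the H2B gene that they carry. Reads of a transgene were not counted apart, and the part of the reporter in the HTB2 counts was not tested. The other 4 H2B genes listed were higher in NAC73 with all libraries, and HTB1 turned with NAC73 2 and 3 only. HTB11 stood at 366, 519, 578 and 318 CPM in NAC73 1 to 4 and 129.8, 165, 128 and 130.1 CPM in CALS7 1 to 4, with a log2 difference of 1.69 ± 0.19 (SE) and an adjusted p of 1.8e-05. HTB9 had a log2 difference of 1.48 (adjusted p = 3.18e-05), HTB4 a log2 difference of 1.02 (adjusted p = 0.000203) and the H2A gene HTA6 a log2 difference of 1.34 (adjusted p = 9.55e-06). HTB1 was 44.9, 0.51, 3.08 and 42.1 CPM in NAC73 1 to 4 and at most 6.11 CPM in CALS7, so its difference (log2 difference 2.33, adjusted p = 0.0267) rested on NAC73 1 and 4. It was -1.29 with NAC73 2 and 3 only, and did not pass without NAC73 1 or 4 or CALS7 1, 3 or 4 (adjusted p from 0.0507 to 0.0868). Near-identical histone genes can share reads, which limits how far their counts can be told apart.

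**Figure D4:**
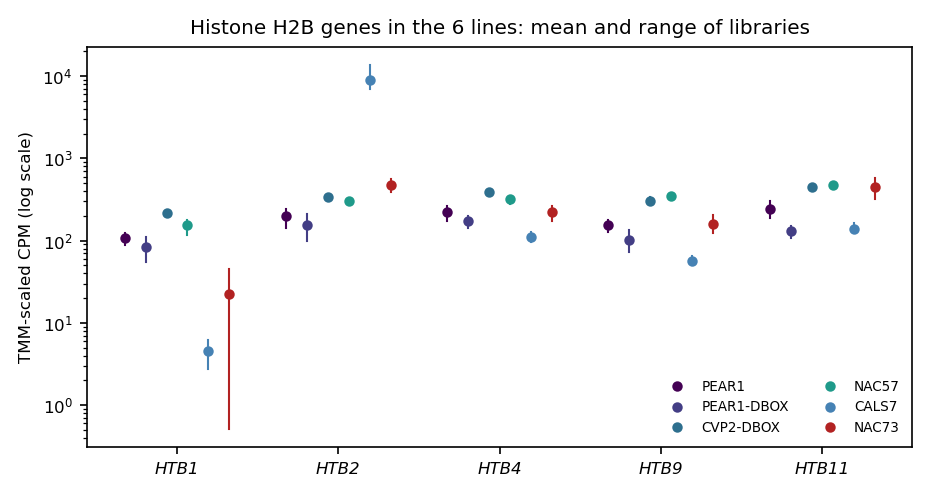
H2B genes in the 6 lines (TMM-scaled CPM, log scale), with the mean as a point and the range of libraries as a line. HTB2 stands apart in the CALS7 line, at 7032 to 13536 CPM.

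Genes of DNA replication separated the NAC73 libraries from each other. Their summed level was 719.6, 66.1, 78.4 and 639.8 CPM in NAC73 1 to 4 and 114, 198, 101 and 87.9 CPM in CALS7 1 to 4, so NAC73 1 and 4 were above and NAC73 2 and 3 below every CALS7 library. Of 18 tested, 6 were higher and 0 lower with all libraries, and 0 and 0 with the 2 lines alone (8 had an unadjusted p below 0.05 with all lines fitted). With 1 library left out 2 to 11 were higher: 3 without NAC73 1, 2 without NAC73 4, 11 without NAC73 2 or 3 and 3 without CALS7 4. With NAC73 1 and 4 only, 17 were higher and 0 lower, beside 19.1% and 11.6% of all nuclear genes. With NAC73 2 and 3 only, 2 were higher and 11 lower, beside 16.8% and 30.2%. In fits of the 2 lines alone, 11 were higher and 0 lower with NAC73 1 and 4 only, beside 5.38% and 6.71% of all nuclear genes, and 0 and 9 with NAC73 2 and 3 only, beside 16.5% and 22.5%. MCM6, a subunit of the replicative helicase, stood at 43.3, 0, 0 and 55 CPM in NAC73 1 to 4 and 1.91, 3.14, 2.35 and 0.971 CPM in CALS7 1 to 4 (log2 difference 3.56, adjusted p = 0.0277). MCM5, another subunit, stood at 69.1, 14, 15.4 and 73.2 CPM in NAC73 1 to 4 and 20.5, 20.3, 16.3 and 8.48 CPM in CALS7 1 to 4 (log2 difference 1.39, adjusted p = 0.0236), and RNR1, the large subunit of ribonucleotide reductase, at 82.8, 7.57, 15.5 and 90.0 CPM in NAC73 1 to 4 and 9.65, 24.9, 5.52 and 6.8 CPM in CALS7 1 to 4 (log2 difference 2.07, adjusted p = 0.0156). TSO2 (log2 difference 1.93, adjusted p = 0.00151) and RNR2A (log2 difference 2.30, adjusted p = 0.00324), small subunits of that enzyme, were higher with all libraries. MCM5 was -0.15 and RNR1 -0.0094 with NAC73 2 and 3 only. MCM5 did not pass without NAC73 1 or 4 or CALS7 3 or 4 (adjusted p from 0.0512 to 0.0839), MCM6 without NAC73 1 or 4 or CALS7 1, 3 or 4 (adjusted p from 0.0555 to 0.071) and RNR1 without NAC73 4 (adjusted p = 0.051).

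Genes of ribosome biogenesis were also higher in NAC73 1 and 4 than in NAC73 2 and 3. They summed to 1037, 220.2, 239 and 1131 CPM in NAC73 1 to 4 and 97.7, 389, 93.4 and 121 CPM in CALS7 1 to 4. Unlike for DNA replication, NAC73 2 and 3 were above CALS7 1, 3 and 4 and below only CALS7 2. Of 8 tested, 3 were higher and 0 lower, and 2 and 0 with the 2 lines alone. NAC73 1 and 4 only gave 7 and 0, and NAC73 2 and 3 only gave 2 and 4, and 5 were higher without NAC73 2 or without NAC73 3. NOP56, a nucleolar protein, stood at 269.5, 139, 151 and 286 CPM in NAC73 1 to 4 and 23.1, 84.4, 23.6 and 25.5 CPM in CALS7 1 to 4, with a log2 difference of 2.43 ± 0.39 (SE) and an adjusted p of 0.000251 and no overlap between the lines. FIB1, a fibrillarin, stood at 197, 17.6, 25.4 and 206 CPM in NAC73 1 to 4 and 16.4, 62.1, 13.2 and 25.7 CPM in CALS7 1 to 4 (log2 difference 1.93, adjusted p = 0.0255), and was -0.44 with NAC73 2 and 3 only. Its call was lost without NAC73 1 or 4 or CALS7 1, 3 or 4 (adjusted p from 0.0579 to 0.0817). ENP1 was higher (log2 difference 1.16, adjusted p = 0.00029), and RID2 had a log2 difference of 1.99 (adjusted p = 0.1).

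Of 21 genes of G2 and M phase, 4 were higher and 1 lower, beside 15.7% and 20.0% of all nuclear genes. With the 2 lines alone 0 were higher and 0 lower. With all lines fitted the list turned between the pairs. NAC73 1 and 4 only gave 9 higher and 0 lower, beside 19.1% and 11.6% of all nuclear genes. With NAC73 2 and 3 only, 5 were higher and 14 lower, beside 16.8% and 30.2%. The medians were 1.01 and -3.04. Without NAC73 4 there were 5 lower. In fits of the 2 lines alone, 1 was higher and 0 lower with NAC73 1 and 4 only, beside 5.38% and 6.71% of all nuclear genes. With NAC73 2 and 3 only these fits gave 3 higher and 7 lower, beside 16.5% and 22.5%. Only 1 of the 21 had a mean of 20 CPM or more in either line, so most of these differences lie between low levels. Summed levels ran from 89.1 to 226 CPM in NAC73 and 58.5 to 126 CPM in CALS7. The mitotic cyclin CYCB1;3 stood at 19.8, 28, 37.8 and 24.1 CPM against 6.38, 11.4, 13.6 and 10.8 CPM (log2 difference 1.38, adjusted p = 0.00108). PLE, a microtubule-binding protein of dividing cells, had a log2 difference of 1.60 (adjusted p = 0.000583), CYCB2;1 a log2 difference of 1.58 (adjusted p = 0.00279) and the kinase gene AUR2 a log2 difference of 1.08 (adjusted p = 0.00207).

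**Figure D5:**
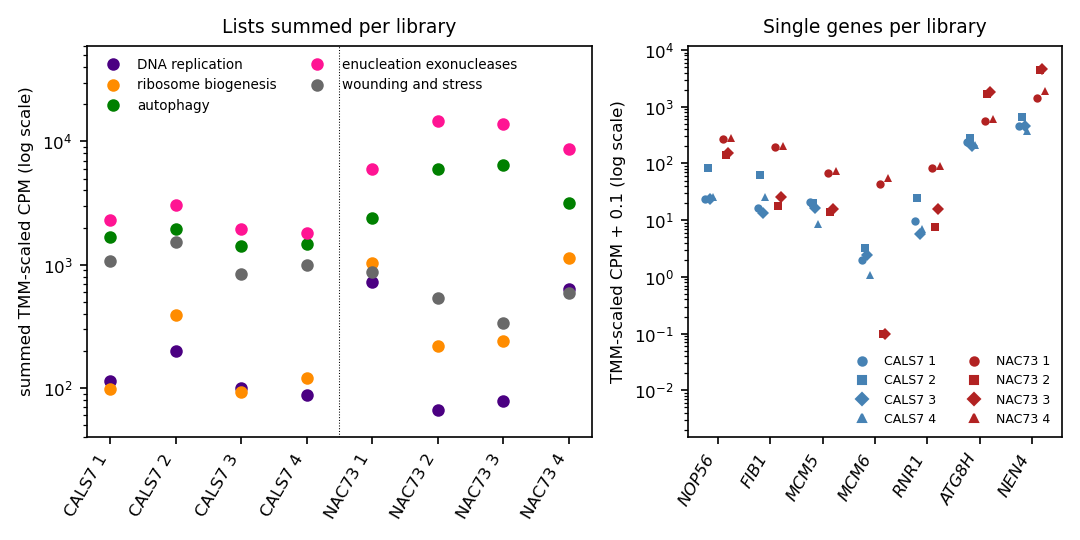
Left, CPM summed over 5 lists in each library, log scale. Right, single genes per library as CPM plus 0.1, log scale. Summed DNA replication and ribosome biogenesis genes are higher in NAC73 1 and 4 than in NAC73 2 and 3. Summed autophagy and exonuclease genes are highest in NAC73 2 and 3.

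The pairs are known from the data alone and are not groups of the study, so the following is a description. Of 7388 nuclear genes with a mean of 20 CPM or more in NAC73, both of NAC73 1 and 4 were above both of NAC73 2 and 3 in 1530 (20.7%), and the reverse held in 3311 (44.8%). The TMM factors of NAC73 1 to 4 were 0.786, 0.509, 0.503 and 0.636, and a smaller factor raises CPM. These shares, here and where quoted above, therefore depend on the scaling, and shares under other scalings were not tested. Gaps of over 4-fold occurred in 391 genes (5.29%) in the first direction and in 0 (0.00%) in the second. The 6 with the largest ratio toward NAC73 1 and 4 included NAP57, a pseudouridine synthase of ribosomal RNA processing, at 149, 0, 0.247 and 196 CPM in NAC73 1 to 4 and 5.49, 51.3, 4.27 and 15.2 CPM in CALS7 1 to 4. The fibrillarin FIB2 stood at 153, 0.583, 0.678 and 155 CPM in NAC73 and 9.91, 43.9, 6.94 and 16 CPM in CALS7. FKBP53, a histone chaperone, was 154, 0.583, 0.37 and 138 CPM in NAC73 and 4.48, 34.9, 5.96 and 8.63 CPM in CALS7. The mitochondrial chaperone gene mtHsc70-1 was 361, 2.04, 1.54 and 292 CPM in NAC73, and the helicase subunits MCM3 and MCM7 were 54.1, 0, 0 and 48.6 CPM and 62.4, 0, 0.185 and 63.2 CPM. None of these 6 passed the test with all 4 NAC73 libraries. In the other direction RLP11 stood at 14.8, 59.9, 71.1 and 13.9 CPM, IMPL1 at 41.3, 140.4, 168 and 38.3 CPM and RCI2B at 349, 1169, 1286 and 335 CPM in NAC73 1 to 4. ENODL20 (8.37, 27.2, 40.3 and 8.63 CPM), PDE247 (12.4, 57.2, 63.4 and 18.6 CPM) and STK (68.5, 255, 356 and 87.7 CPM) completed the 6. These 6 were higher in NAC73 than in CALS7 with all libraries, although RCI2B turned to -0.058 with the 2 lines alone and NAC73 1 and 4 only.

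Of 19 genes of wounding and stress, 0 were higher and 8 lower in NAC73, and 0 and 4 with the 2 lines alone. There were 0 higher and 7 lower with NAC73 1 and 4 only, and 0 and 17 with NAC73 2 and 3 only, with medians of -0.51 and -2.87, and 13 lower without NAC73 1. AOX1A, the alternative oxidase of mitochondria, stood at 77.8, 66.6, 62.6 and 43 CPM in NAC73 1 to 4 and 235, 253, 193 and 212 CPM in CALS7 1 to 4, with a log2 difference of -1.84 ± 0.20 (SE) and an adjusted p of 1.46e-05. The calmodulin-like gene TCH2 stood at 36, 38.6, 25.8 and 26 CPM in NAC73 1 to 4 and 66.5, 95.4, 48.5 and 57.2 CPM in CALS7 1 to 4, with a log2 difference of -1.08 ± 0.22 (SE) and an adjusted p of 0.00123. TCH4, a wall-modifying enzyme, had a log2 difference of -2.51 (adjusted p = 0.000175), at most 14.1 CPM. LOX2, a lipoxygenase of jasmonate synthesis, had 0 counts in NAC73 and 2.19, 0.502, 2.59 and 2.5 CPM in CALS7, at least 44.2-fold lower against 3 counts over the line.

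Markers of other cell types were read as whole lists, and their part in the differences above was not tested. Summed xylem and secondary wall markers were 156 to 270.5 CPM in NAC73 and 199.6 to 216 CPM in CALS7, and of 25 tested 0 were higher and 8 lower (0 and 2 with the 2 lines alone), with 8 of 26 at 0 in all 4 NAC73 libraries. LAC17 and NST2 were at 0 counts in NAC73 and at 1.37, 0.0836, 7.93 and 4.27 CPM and 1.65, 0.585, 2.35 and 0.854 CPM in CALS7, at least 80.3-fold and 30.5-fold lower against 3 counts over the line. For CESA8 and SND1, each with 1 count in NAC73, the ratio of CALS7 to NAC73 was 108 (95% counting interval 19.1 to 4272) and 84.8 (95% counting interval 15 to 3369). Of 9 companion cell markers, 0 were higher and 1 lower, and the sum, 1199.7 to 2206 CPM in NAC73 and 1003 to 1424 CPM in CALS7, was carried by the proton pump gene AHA3 (log2 difference 0.57, adjusted p = 0.193; library totals only -0.26). SULTR2;1 had 0 counts in NAC73, at least 43-fold lower, while NAKR1 (log2 difference 2.04, adjusted p = 0.243) and SWEET11 (log2 difference 2.06, adjusted p = 0.239) were at most 6.11 and 3.81 CPM. Xylem markers gave 0 higher and 6 lower with NAC73 1 and 4 only, and 1 and 4 with NAC73 2 and 3 only, and companion cell markers 0 higher and 1 lower with NAC73 1 and 4 only, and 0 and 2 with NAC73 2 and 3 only.

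Of 11 procambium genes, 1 was higher and 2 lower, and 1 and 1 with the 2 lines alone. Counts were 2 higher and 1 lower with NAC73 1 and 4 only, and 2 and 5 with NAC73 2 and 3 only. Leaving out NAC73 1 or 3 gave 2 higher, and leaving out NAC73 4 gave 4 lower. The receptor kinase PXY stood at 60.1, 137, 122 and 94.4 CPM in NAC73 1 to 4 and 38.9, 44.7, 29.3 and 31.2 CPM in CALS7 1 to 4, with a log2 difference of 1.52 ± 0.23 (SE) and an adjusted p of 0.00016. REV, a homeodomain leucine zipper factor, was lower (log2 difference -0.71, adjusted p = 0.0129), and PHB, its relative, had a log2 difference of 0.36 (adjusted p = 0.123), which turned to -0.45 with library totals only. WOX4 had 0 counts in NAC73, at least 6.76-fold lower. For pericycle (5 tested, summed 0.0616 to 16.8 CPM in NAC73 and 1.05 to 5.3 CPM in CALS7) no member passed the test in edgeR, and 0 had an unadjusted p below 0.05. PHO1 (log2 difference 1.46, adjusted p = 0.268), SKOR (log2 difference 1.52, adjusted p = 0.43), AHP6 (log2 difference -2.27, adjusted p = 0.268) and LBD29 (adjusted p = 0.264, 0 counts in NAC73) were the members with the smallest adjusted p, and 1 member was lower without NAC73 1 or without NAC73 4. Endodermis and cortex markers (9 tested, summed 8.42 to 45.4 CPM in NAC73 and 5.17 to 30.5 CPM in CALS7) likewise gave 0 calls, with 0 at an unadjusted p below 0.05, and 1 call without CALS7 1 and 1 with NAC73 2 and 3 only. Their smallest adjusted p values belonged to CASP5 (0.235), MYB36 (0.288), CASP2 (0.358) and PER64 (0.386).

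Of 10 epidermis and root hair markers, 0 were higher and 3 lower, and 0 and 0 with the 2 lines alone. Only 1 was lower without NAC73 2, and there were 0 higher and 1 lower with NAC73 1 and 4 only, and 0 and 3 with NAC73 2 and 3 only. PRP3 stood at 0.127, 166, 0 and 0 CPM in CALS7 1 to 4, and without CALS7 2 its difference was 1.87 (adjusted p = 0.551). Its call was also lost without any 1 NAC73 library. COBL9 stood at 0.381, 14.6, 0.291 and 15.5 CPM in CALS7 and 0 in NAC73, at least 155-fold lower, and RSL4 at 0, 3.01, 0 and 8.21 CPM. RSL4 had 2 counts in NAC73, a ratio of CALS7 to NAC73 of 91.3 (95% counting interval 25.1 to 757), and did not pass without NAC73 1, 2 or 3 or CALS7 4 (adjusted p from 0.0753 to 0.108). EXP7 had a log2 difference of -5.15 (adjusted p = 0.0515). Root cap markers (5 tested) gave 0 calls and 0 at an unadjusted p below 0.05, and 3 lower with NAC73 2 and 3 only. CEL5, a root cap cellulase gene, stood at 471, 8.23, 1.48 and 49.4 CPM in NAC73 1 to 4 and 7.65, 61.2, 218 and 52.6 CPM in CALS7 1 to 4, highest in NAC73 1, and BRN1, SMB and FEZ had adjusted p values of 0.7, 0.582 and 0.633. Of 4 reference genes, 3 were higher and 0 lower with all lines fitted and 1 with the 2 lines alone. UBQ10 stood at 2817, 5460.5, 5878 and 3715 CPM in NAC73 1 to 4 and 1725, 1934, 1439 and 1424 CPM in CALS7 1 to 4, with a log2 difference of 1.45 ± 0.21 (SE) and an adjusted p of 0.000108. UBC21 had a log2 difference of 0.93 (adjusted p = 0.000604), PP2AA3 a log2 difference of 0.63 (adjusted p = 0.000997) and ACT2 a log2 difference of -0.20 (adjusted p = 0.555), and PP2AA3 turned to -0.13 with library totals only.

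Of all nuclear genes tested, 11.6% were higher and 12.6% lower in NAC73 without overlap between the lines. Among genes past the test with a symbol, at least 20 CPM in the higher line and no overlap, those with the largest differences were named. RLP12, a receptor-like protein, stood at 67.2, 192, 241 and 150.4 CPM in NAC73 1 to 4 and 9.27, 18.4, 7.38 and 8.86 CPM in CALS7 1 to 4, with a log2 difference of 3.89 ± 0.68 (SE) and an adjusted p of 0.000525, and its neighbour RLP11 had a log2 difference of 3.87 (adjusted p = 0.011). NAC084 and NAC024 are NAC factors. NAC084 stood at 39.8, 128, 161 and 53.6 CPM in NAC73 1 to 4 and 7.27, 12.8, 6.83 and 3.8 CPM in CALS7 1 to 4 (log2 difference 3.64, adjusted p = 0.000405), and NAC024 had a log2 difference of 3.33 (adjusted p = 0.00538). HTA8, an H2A.Z gene, stood at 38, 6.99, 13.4 and 33.4 CPM in NAC73 1 to 4 and 1.21, 4.06, 1.39 and 1.53 CPM in CALS7 1 to 4 (log2 difference 3.50, adjusted p = 8.52e-05), and was higher in NAC73 1 and 4. ENODL20 (log2 difference 3.46, adjusted p = 0.000544), the polygalacturonase gene QRT3 (log2 difference 3.42, adjusted p = 0.0114) and the COBRA-like gene COBL10 (log2 difference 3.31, adjusted p = 0.0222) were also higher, and COBL10 did not pass without CALS7 1 or 3 (adjusted p from 0.0522 to 0.0525). The kinase gene HT1 (log2 difference 3.28, adjusted p = 0.00783), the subtilase gene SBT3.12 (log2 difference 3.27, adjusted p = 0.00386), the MADS factor STK (log2 difference 3.10, adjusted p = 0.00707) and the thioredoxin gene TRX1 (log2 difference 3.07, adjusted p = 0.00153) completed the 12.

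Several of the largest falls rested on 1 CALS7 library. PRP1, EXT6 and AGP3, wall protein genes, had 0 counts in NAC73 and reached 160.4, 117 and 91.5 CPM in CALS7 2 alone. They were at least 668-fold, 487-fold and 394-fold lower against 3 counts over the line. Without CALS7 2 none of the 3 passed the test (adjusted p = 0.202, 0.0951 and 0.065). PME2, a pectin methylesterase, was 0.984, 1.42, 4.33 and 74.5 CPM in CALS7 and 0 in NAC73, at least 476-fold lower, and passed without CALS7 4 (adjusted p = 0.00235). LOX4 (log2 difference -3.36, adjusted p = 0.0112), the transporter gene PEN3 (log2 difference -2.94, adjusted p = 0.0125) and CYP81D11 (log2 difference -2.54, adjusted p = 0.00258) were lower, as were the arabinogalactan gene AGP2 (log2 difference -2.56, adjusted p = 0.00161) and HCA2. The chromatin remodeller chr31 stood at 5.08, 7.79, 9.86 and 15.5 CPM in NAC73 1 to 4 and 58.6, 53.3, 51 and 51.5 CPM in CALS7 1 to 4 (log2 difference -2.49, adjusted p = 9.35e-06), and WRKY2 at 3.9, 4.81, 1.66 and 10.6 CPM in NAC73 1 to 4 and 30.6, 27.3, 28.8 and 26.2 CPM in CALS7 1 to 4 (log2 difference -2.43, adjusted p = 0.000139). Both were low in all 4 NAC73 libraries.

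Genes with the smallest adjusted p values were also named, under the limits on level, symbol and overlap given above for the largest differences. Their levels did not all vary little within a line. HTB2, described above, was among them and ran from 7032 to 13536 CPM in CALS7. GH9C2, given below, was 140.2 CPM in NAC73 4 and 80.5 to 86.8 CPM in the other NAC73 libraries. GATA4, a GATA factor, stood at 49.3, 49.2, 55.7 and 36.4 CPM in NAC73 1 to 4 and 229.7, 226, 246 and 233 CPM in CALS7 1 to 4, with a log2 difference of -2.29 ± 0.15 (SE) and an adjusted p of 5.8e-08. RPT5B and PAE2, subunits of the proteasome, were lower. RPT5B stood at 39.2, 32, 34.6 and 42.1 CPM in NAC73 1 to 4 and 129, 149, 120.2 and 125 CPM in CALS7 1 to 4 (log2 difference -1.82, adjusted p = 1.14e-07), and PAE2 had a log2 difference of -1.12 (adjusted p = 6.3e-06). The endoglucanase GH9C2 (log2 difference -2.29, adjusted p = 6.87e-07) and LBD4 (log2 difference -2.11, adjusted p = 3.42e-06) were lower too. Among genes higher in NAC73, the H2A gene HTA10 stood at 200.5, 159, 207 and 131 CPM in NAC73 1 to 4 and 34.6, 42.4, 38 and 30.7 CPM in CALS7 1 to 4, with a log2 difference of 2.26 ± 0.19 (SE) and an adjusted p of 1.52e-06. AT-HSFA5, a heat shock factor, had a log2 difference of 1.59 (adjusted p = 1.66e-06), the RNA reader ECT1 a log2 difference of 2.12 (adjusted p = 2.67e-06), TBL23 a log2 difference of 1.99 (adjusted p = 2.84e-06), GSTZ1 a log2 difference of 2.22 (adjusted p = 5.55e-06) and CYP77A5P a log2 difference of 1.85 (adjusted p = 6.94e-06). All of these held with the 2 lines alone.

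The nuclear genes with the highest mean read share, which grows with transcript length, were NS2, SUS6, AT2G46630, AT1G63310 and HVA22F in NAC73, and HTB2, UBQ3, CALS7, SUS6 and AT1G08160 in CALS7. HVA22F stood at 5646, 16760.0, 19687 and 5969.7 CPM in NAC73 1 to 4 and 1523, 2070.5, 1291 and 1131 CPM in CALS7 1 to 4, without overlap, and it had a log2 difference of 3.00 (adjusted p = 0.0574), and log2 2.66 (adjusted p = 0.0147) with the 2 lines alone. NS2 had a log2 difference of 2.31 (adjusted p = 0.0321), lost without NAC73 2 or 3 or CALS7 1, 3 or 4 (adjusted p from 0.0584 to 0.076), AT1G63310 a log2 difference of 2.17 (adjusted p = 0.00127) and AT1G08160 a log2 difference of 1.53 (adjusted p = 0.0112). AT2G46630 had a log2 difference of 2.07 (adjusted p = 0.0795) and log2 1.71 (adjusted p = 0.0128) with the 2 lines alone. The ubiquitin gene UBQ3 had a log2 difference of 0.80 (adjusted p = 0.0412), and -0.041 with library totals only, and did not pass without NAC73 2 or 3 or CALS7 1, 3 or 4 (adjusted p from 0.0651 to 0.114).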

How the data were processed

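The deposited tables give raw counts, not normalised by the authors, for 33602 genes. The submitters' processing notes name Bowtie2, featureCounts, edgeR and TAIR10, with versions and strand not given in the sources used here. Gene symbols and upstream windows came from TAIR10.1, and 32835 locus codes were found there.

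All 21 libraries entered 1 edgeR 4.0.16 model (R 4.3.3, TMM, filterByExpr, robust quasi-likelihood F tests, Benjamini-Hochberg at 0.05), with the contrast NAC73 minus CALS7, and calls were counted over nuclear genes. Library measures were compared by exact permutation tests. Alternatives were other scalings, no filter, DESeq2 1.42.0, limma 3.58.1 voom, fewer lines, a replicate block and each library left out. Fits with library totals only, and with the 2 lines and 1 pair of NAC73 libraries, were added after the data were seen. The pipeline was tested on simulated data. Figures were drawn with matplotlib 3.10.9.

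The members and 21 gene lists were chosen with earlier results of these data known. List members were dropped where the reference gave their locus no matching name, which left 233 of 262. List counts therefore do not cover whole gene families. Named genes were the 12 higher and 12 lower with the largest difference and the 6 and 6 with the smallest adjusted p among genes past the test with 20 CPM, a symbol and no overlap, the 6 reporter promoter genes, up to 4 members per list, 6 and 6 for the NAC73 pairs, and 5 with the highest mean per line, 138 in all. Other list members named, such as NAC045, SEOR1, BAM3, ATG8A and MCM6, were chosen after their values were seen. Where NAC73 had 0 counts, the fold was bounded by 3 counts over the line. Bounds and intervals (exact binomial, 95%) reflect counting error alone, as the labels mention PCR and no molecular identifiers.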

Additional observations from a re-analysis of the deposited data

Results flagged for a closer look

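A library lay far from the other 3 of its line in 14 of 208 groups of 4 scanned, by a gap beyond Dixon's 95% critical value. The groups were named genes with a mean of at least 20 CPM and library measures. A chance rate of about 1 group in 20 holds for independent, normally distributed values. These groups share libraries, and many genes were picked for large differences, so that rate is no measure for the 14. CEL5 had 471 CPM in NAC73 1, against 1.48 to 49.4 CPM in the other 3 libraries of that line. PME2 had 74.5 CPM in CALS7 4, against 0.984 to 4.33 CPM in the other 3 libraries of that line. PRP1 had 160.4 CPM in CALS7 2, against 0.0581 to 0.353 CPM in the other 3 libraries of that line. NOP56 had 84.4 CPM in CALS7 2, against 23.1 to 25.5 CPM in the other 3 libraries of that line. GH9C2 had 140.2 CPM in NAC73 4, against 80.5 to 86.8 CPM in the other 3 libraries of that line. GSTZ1 had 31.8 CPM in CALS7 3, against 41.5 to 43.3 CPM in the other 3 libraries of that line. EXT6 had 117 CPM in CALS7 2, against 0.127 to 0.177 CPM in the other 3 libraries of that line. HTB11 had 165 CPM in CALS7 2, against 128 to 130.1 CPM in the other 3 libraries of that line. PRP3 had 166 CPM in CALS7 2, against 0 to 0.127 CPM in the other 3 libraries of that line. mtHsc70-1 had 111 CPM in CALS7 2, against 11.8 to 24.5 CPM in the other 3 libraries of that line. AGP3 had 91.5 CPM in CALS7 2, against 0.318 to 1.25 CPM in the other 3 libraries of that line. SUN1 had 91.3 CPM in CALS7 2, against 51 to 57.3 CPM in the other 3 libraries of that line. HTB2 had 13536 CPM in CALS7 2, against 7032 to 7683 CPM in the other 3 libraries of that line. TMO6 had 364 CPM in CALS7 2, against 446 to 462 CPM in the other 3 libraries of that line. In 10 of the 14 the library was CALS7 2.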

How the results depend on the processing

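Deviations of same-numbered libraries correlated at -0.42, -0.39, 0.054 and 0.06 over 7147 genes. Those of libraries with unlike numbers correlated at -0.325 to 0.383. The labels do not say whether replicate numbers mark pairs. These correlations cannot settle it, because the split within NAC73 enters the deviations. With the replicate number as a block, 7696 nuclear genes passed the test with all libraries and 71 (20 higher, 51 lower) with the 2 lines alone, where 3 list members passed. The 2 lines alone gave 2236 (955 higher, 1281 lower) and 47 list members, and 2706 (1205 and 1501) with NAC73 1 and 4 only. NAC73 1 and 4 only gave 3016 lower with all lines fitted, and NAC73 2 and 3 only 7837. TMM with singleton pairing gave 2559 higher, and library totals only gave 837 higher and 10167 lower. Leaving out 1 library gave 7230 (without CALS7 3) to 9627 genes (without CALS7 2). For the number of genes with a count, the difference was -8946 to -7678 with 1 library left out, -7402 with NAC73 1 and 4 and -8866 with NAC73 2 and 3. The organelle share differed by -1.56 to -1.41 percentage points with 1 library left out, -1.45 with NAC73 1 and 4 and -1.55 with NAC73 2 and 3. With 3 against 4 libraries the exact test cannot go below 0.0571. With library totals only in edgeR, the calls of APL, NAC086, NAC010, BRX, CLE26, S32, RNS2, GAMMA-VPE, HTB1, HTB4, WIP1, WIP2, SUN1, ENP1, FIB1, MCM5, MCM6, RNR1, CYCB1;3, CYCB2;1, AUR2, UBC21, PP2AA3, UBQ3, NS2, AT1G08160, COBL10, PDE247 and RCI2B were also lost. With median-of-ratios factors in edgeR those of NAC010, S32 and UBQ3 were lost, and with TMM with singleton pairing those of NAC010, S32, UBQ3, BRX, MCM5, NS2 and GAMMA-VPE. Signs turned as follows, and the cause was not tested. With median-of-ratios size factors (RLE), the log2 difference was -0.023 for CALS7 and -0.093 for CALS9. With TMM with singleton pairing (TMMwsp), the log2 difference was -0.11 for CALS7 and -0.19 for CALS9. With library totals only, no TMM, the log2 difference was -0.72 for CALS7, -0.13 for PP2AA3, -0.12 for BRX, -0.23 for S32, -0.45 for PHB, -0.80 for CALS9, -0.21 for NAC057, -0.092 for GAMMA-VPE, -0.041 for UBQ3 and -0.26 for AHA3. With DESeq2 Wald test, the log2 difference was -0.023 for CALS7 and -0.093 for CALS9. With only the 2 lines compared, the log2 difference was -0.27 for CALS7, -0.0048 for PHB and -0.35 for CALS9. With replicate block with only the 2 lines compared, the log2 difference was -0.43 for CALS7, -1.77 for CEL5, -0.028 for PHB, -0.47 for CALS9, -0.16 for CASP2, -0.017 for PHO1, -0.34 for NAP57, -0.65 for MCM7, -0.14 for FKBP53, -0.48 for FIB2, -0.11 for mtHsc70-1, -0.099 for MCM6, -1.04 for MCM3 and -0.052 for RID2. With only the 2 lines compared, NAC73 1 and 4 only, the log2 difference was -0.45 for CALS7, -0.053 for CLE26, -0.30 for S32, -0.32 for PHB, -0.058 for RCI2B, -0.57 for CALS9, -0.29 for NAC057, -0.15 for GAMMA-VPE and -0.23 for AHA3. With limma voom with sample quality weights, the log2 difference was -0.64 for HTB1, -2.04 for CEL5, -1.08 for SKOR, -0.36 for CASP2, -1.26 for PHO1, -1.53 for SWEET11, -4.35 for NAP57, 0.42 for PRP3, -3.69 for MCM7, -1.99 for FKBP53, -2.46 for FIB2, -1.67 for mtHsc70-1, -1.99 for NAKR1, -3.30 for MCM6, -4.51 for MCM3 and -1.01 for RID2. With NAC73 2 and 3 only, the log2 difference was -1.29 for HTB1, -4.14 for CEL5, 0.0037 for NAC028, -0.15 for MCM5, -0.0094 for RNR1, -6.58 for SKOR, -1.41 for PHO1, -6.58 for SWEET11, -7.12 for NAP57, -5.72 for MCM7, -4.82 for FKBP53, -4.91 for FIB2, -4.47 for mtHsc70-1, -6.72 for NAKR1, -9.11 for MCM6, -10.53 for MCM3, -0.44 for FIB1 and -2.95 for RID2. With only the 2 lines compared, NAC73 2 and 3 only, the log2 difference was -1.46 for HTB1, -4.34 for CEL5, -0.30 for MCM5, -0.12 for RNR1, -6.28 for SKOR, -1.52 for PHO1, -6.25 for SWEET11, -7.21 for NAP57, -5.87 for MCM7, -4.91 for FKBP53, -5.01 for FIB2, -4.55 for mtHsc70-1, -6.39 for NAKR1, -8.75 for MCM6, -10.14 for MCM3, -0.56 for FIB1 and -3.07 for RID2. With NAC73 1 and 4 only, the log2 difference was 0.099 for BRN1 and -0.12 for CALS9. With 1 library left out, the log2 difference ran from -0.12 to 0.37 for CALS7, -2.11 to 1.71 for CEL5, -0.17 to 0.0053 for NAC028, -6.54 to 2.40 for SKOR, -0.19 to 0.29 for CALS9, -0.70 to 2.22 for PHO1, -8.55 to 1.87 for PRP3 and -1.78 to 3.28 for NAKR1. Read depth limits genes near 0 counts, whose fitted differences depend on the prior count.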
